A study of Homo sapiens with 6 samples.

Results

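The genes of glycolysis and of the hypoxia response were examined in RNA-seq libraries of AS-tDR-007333-overexpressed and negative control (NC) lung adenocarcinoma cells. The set holds 35 genes chosen by name, by a rule that uses no measured value but with earlier results of these data known, out of the 12154 protein-coding genes in the deposited table. It has 17 glycolytic enzymes, 3 carriers of glucose or lactate, 3 enzymes that set the rate or the direction of glucose use, HIF1A with the prolyl hydroxylases EGLN1 and EGLN3, and 9 other targets of hypoxia-inducible factor (HIF). AS-tDR-007333 is a small RNA cut from the 5′ part of a glycine tRNA. Each group had 3 libraries, and whether they are separate cultures is not stated, so a p-value below reflects only library-to-library spread, possibly technical. The sample labels name A549 as the cell line, with a tRF plasmid or an empty vector delivered by Lipofectamine 3000, whereas the study's methods name PC9 and transfection of AS-tDR-007333 or NC. Both lines derive from lung adenocarcinoma. Which of the descriptions applies to these libraries was not resolved here.

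Glycolysis splits glucose into pyruvate and yields ATP without oxygen. Lactate dehydrogenase then turns pyruvate into lactate, which leaves the cell through monocarboxylate carriers. HIF is a transcription factor whose alpha subunit is marked for destruction by prolyl hydroxylases while oxygen is present. When oxygen falls, the alpha subunit accumulates and HIF binds hypoxia response elements, whose core is often written ACGTG, in many glycolytic genes. Tumour cells often run glycolysis at a high rate in the presence of oxygen too. Because HIF is governed mainly through the stability of its protein, the mRNA of HIF1A is a poor guide to its activity. RNA levels also give no measure of glycolytic flux.

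The molecules that the study lists as AS-tDR-007333 and its control are shown because they define the contrast. Whether this control oligonucleotide or an empty vector was used for the NC libraries depends on the source followed.
AS-tDR-007333 (the fragment): gcauuggugguucagugguagaauucuu
Negative control, NC: gagaauuuugauggccguucuguaugug
Both are 28 bases long, and both hold 5 A, 3 C, 9 G and 11 U. Aligned from their 5′ ends they carry the same base at 8 positions, so the control has the base composition of the fragment in another order.

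The hypoxia response element core was searched in the members' promoters, since it is the sequence through which HIF acts. RefSeq promoters (GRCh38.p14, 250 bases before to 50 bases after each start) matched 31 of the 35 genes, with 59 windows, and SLC16A1, NDRG1, VEGFA and BNIP3L were not matched. ACGTG stood on either strand in 23 of the 59 windows (39.0%, 95% Wilson interval 27.6 to 51.7%), against 21.4% of all promoters of this length and 25.8% of the promoters of genes tested below. By gene, 19 of 31 members (61.3%) had a match in at least 1 window, against 32.9% of the genes tested. The members had 59 windows for 31 genes and the genes tested 12614 windows for 8669. The members thus had more windows per gene in which to match. The Wilson interval also takes windows of the same gene as independent. The set was chosen to hold HIF targets, so a higher share of the HIF core could be foreseen. The related core GCGTG was found in 40.7% of the members' windows and in 48.8% of those of the genes tested. By gene it was found for 61.3% of the members and 58.6% of the genes tested. Windows of 25 bases around 1 match each are given for the 7 members below, from enzymes and HIF targets described later. ACGTG or its reverse complement CACGT is in capitals.
GAPDH, chr12:6535174-6535198, plus strand: ctgcggggtcACGTGtcgcagagga
ALDOA, chr16:30064375-30064399, plus strand: gcagggaggcCACGTgatccgagtc
LDHA, chr11:18394369-18394393, plus strand: ctcccagcgcACGTGgagcagtctg
PGK1, chrX:78104036-78104060, plus strand: ggcgtgccggACGTGacaaacggaa
ENO2, chr12:6914452-6914476, plus strand: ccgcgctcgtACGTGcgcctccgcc
CA9, chr9:35673900-35673924, plus strand: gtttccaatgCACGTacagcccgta
P4HA1, chr10:73096938-73096962, minus strand: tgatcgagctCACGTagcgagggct
The matches shown for GAPDH, ALDOA and LDHA are part of CACGTG, a palindrome that holds the core on both strands and is also the E-box bound by MYC and USF proteins. These matches describe letters in a window and do not show binding.

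The values are FPKM, fragments per kilobase of gene scaled by the authors to the mapped fragments of each library, so levels can be set side by side between genes. The columns summed to 197324 to 202921 FPKM, and no counts were given, so the depth of the libraries and the counting error of each value are unknown. NC replicate 1 stood apart on the first principal component (24.3% of the variance), at -18.0 where the other 5 libraries lay between -1.53 and 9.91. Epithelial markers were abundant, with KRT19 at 601 to 678 FPKM and EPCAM at 153 to 168 FPKM, and of 15 markers of fibroblasts, leukocytes and endothelial cells only COL1A1 and CD68 were listed. NAPSA, a marker of lung adenocarcinoma, was low at 0.345 to 0.563 FPKM, and NKX2-1, another such marker, was not listed. The 8 genes listed to set beside the named cell line gave no single answer. CDKN2A, which A549 is known to have lost, was listed at 9.84 to 17.5 FPKM, while MTAP, its neighbour, was at 0.961 to 3.26 FPKM. The oxidative stress genes AKR1B10 (152 to 163 FPKM), AKR1C1 (90.2 to 98.1 FPKM), AKR1C2 (115 to 122 FPKM) and NQO1 (93.6 to 102.8 FPKM), which A549 is known to express strongly, were abundant. EGFR lay at 49.3 to 67.4 FPKM and CDKN1A at 8.78 to 34.02 FPKM.

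The glycolytic enzymes spanned a wide range of levels, and 9 of the 17 ranked within the first 256 of the 12154 listed genes by mean FPKM. GAPDH, which oxidises glyceraldehyde phosphate, ranked 15. ENO1 (enolase) ranked 29, TPI1 (triosephosphate isomerase) 55, LDHA 70, PKM (pyruvate kinase) 116 and LDHB 128. PGK1, the first enzyme of the pathway to make ATP, ranked 171, ALDOA (aldolase) 180 and PGAM1 (phosphoglycerate mutase) 256. The lowest ranks among the enzymes were those of ENO2 (3485), HK2 (3986), PFKL (4857), ALDOC (5601) and PFKM (6006). The leading genes of the opening steps lay between. HK1 lay at 54.7 to 59.5 FPKM, PFKP at 60.8 to 66.8 FPKM and GPI, which makes fructose phosphate, at 34.1 to 38.6 FPKM. The 17 enzymes together took 1.30 to 1.37% of the listed FPKM in the NC libraries and 1.37 to 1.42% in the AS-tDR-007333 libraries. GAPDH had the highest level of them and so weighs most in this sum. Its mean was 941 FPKM in NC and 1037 FPKM in AS-tDR-007333 libraries. The log2 fold change was above 0 for 8 of the 17 enzymes and below 0 for 9. At the other end of the set, CA9 (1.85 to 3.08 FPKM) and ANKRD37 (1.54 to 2.22 FPKM) ranked 8894 and 9863.

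**Figure D1:**
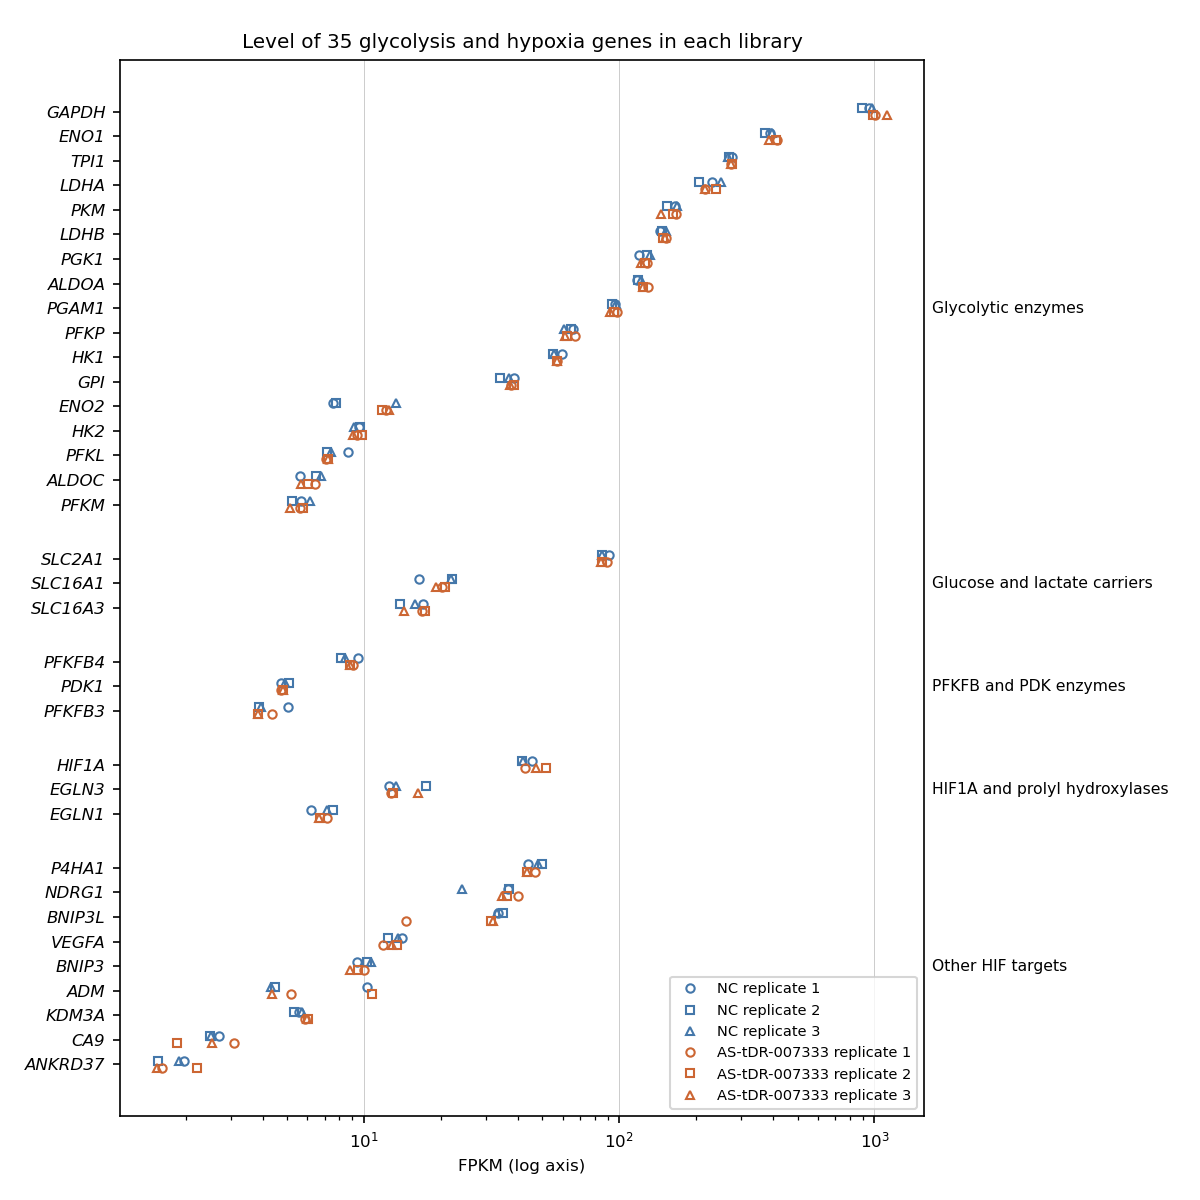
FPKM of the 35 genes on a log axis, grouped by role, with blue symbols for the 3 NC libraries and orange symbols for the 3 AS-tDR-007333 libraries. The genes span from ANKRD37 at 1.54 to 2.22 FPKM to GAPDH at 892.6 to 1124 FPKM, and BNIP3L, ADM, ENO2 and NDRG1 show libraries set apart from the rest.

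At most steps with several genes, 1 gene supplied most of the mRNA. HK1, the broadly expressed hexokinase, held 85.0 to 86.3% of the summed FPKM of HK1 and HK2, the inducible hexokinase of many tumours. PFKP, the platelet form of phosphofructokinase, held 81.8 to 84.0% of its step, with 8.92 to 10.9% for the liver form PFKL and 6.81 to 8.25% for the muscle form PFKM. ALDOA held 94.7 to 95.6% of aldolase mRNA over ALDOC, the brain form. ENO1 held 96.7 to 98.1% of enolase mRNA over ENO2, the neuronal form. These shares kept their order in all 6 libraries, and at the hexokinase, phosphofructokinase, aldolase and enolase steps the levels of the leading gene and of the next did not overlap.

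The lactate steps were more evenly divided. LDHA, whose subunit favours lactate formation, held 58.1 to 62.2% of the LDHA and LDHB sum. Among the monocarboxylate carriers, SLC16A1 lay at 16.5 to 22.2 FPKM and SLC16A3, the form known for lactate export in glycolytic cells, at 13.8 to 17.4 FPKM, so their ranges overlapped. PFKFB4 held 65.2 to 69.7% over PFKFB3, where both enzymes make the sugar bisphosphate that activates phosphofructokinase. EGLN3 held 63.9 to 70.9% over EGLN1, and BNIP3L held 59.4 to 78.5% over BNIP3. EGLN3 and SPTSSA, at 20.0 to 32.98 FPKM, overlap on the same strand in GENCODE release 44 mapped to GRCh37. So do PFKFB4 and UCN2 (8.39 to 11.6 FPKM) and ENO2 and LRRC23 (3.37 to 5.41 FPKM). GPI, ALDOA, ALDOC, LDHB and EGLN1 each overlap another coding gene on the same strand too. Of those other genes only the one at GPI was listed, at 0 to 1.09 FPKM. How shared reads were divided in the counting is unknown here, so these levels are uncertain. Reads of GAPDH and BNIP3 may be shared with their 65 and 44 named pseudogenes in that annotation.

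The study compared AS-tDR-007333-overexpressed with NC cells to find genes that respond to the fragment. No gene of the set passed the test: 0 of 35 were called by limma at an adjusted p under 0.05. Of all 11042 genes tested 7 (0.0634%) were called, 0.0362% higher and 0.0272% lower in AS-tDR-007333-overexpressed cells. At so small a share, 0 of 35 says little of the set. At an unadjusted p under 0.05 from limma, 0 of 35 passed, where 399 of all genes (3.61%) did. A Ballgown-style model, fitted gene by gene with the library total as a covariate, called 0 of the 35 and 0 of all 11042 genes (0.0%), so its count says nothing of the set. At an unadjusted p under 0.05 it had 1 of the 35, ALDOA, and 462 of all genes (4.18%). The median log2 fold change was -0.00788 over the set and -0.0103 over all genes tested. The fold change was above 0 for 14 and below 0 for 21 of the 35, and above 0 for 45.0% of all genes. Every fold change is given as log2(FPKM + 1), AS-tDR-007333 over NC, a scale on which differences in weakly expressed genes are compressed. The adjusted p from limma was at least 0.9996 for each of the 35 genes.

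How large a difference the libraries allow is given by the intervals. The 95% interval of the fold change lay within 1.5-fold in either direction for 31 of the 35 genes (88.6%), against 89.4% of all genes. The exceptions were ENO2, BNIP3L, NDRG1 and ADM, so a difference of 1.5-fold lies within the intervals of these genes. By role, it lay within 1.5-fold for 16 of the 17 glycolytic enzymes, all 3 carriers, all 3 of PFKFB3, PFKFB4 and PDK1, all 3 of HIF1A, EGLN1 and EGLN3, and 6 of the 9 other HIF targets. In bulk RNA, a change in the number of expressing cells and a change in RNA per cell cannot be told apart.

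**Figure D2:**
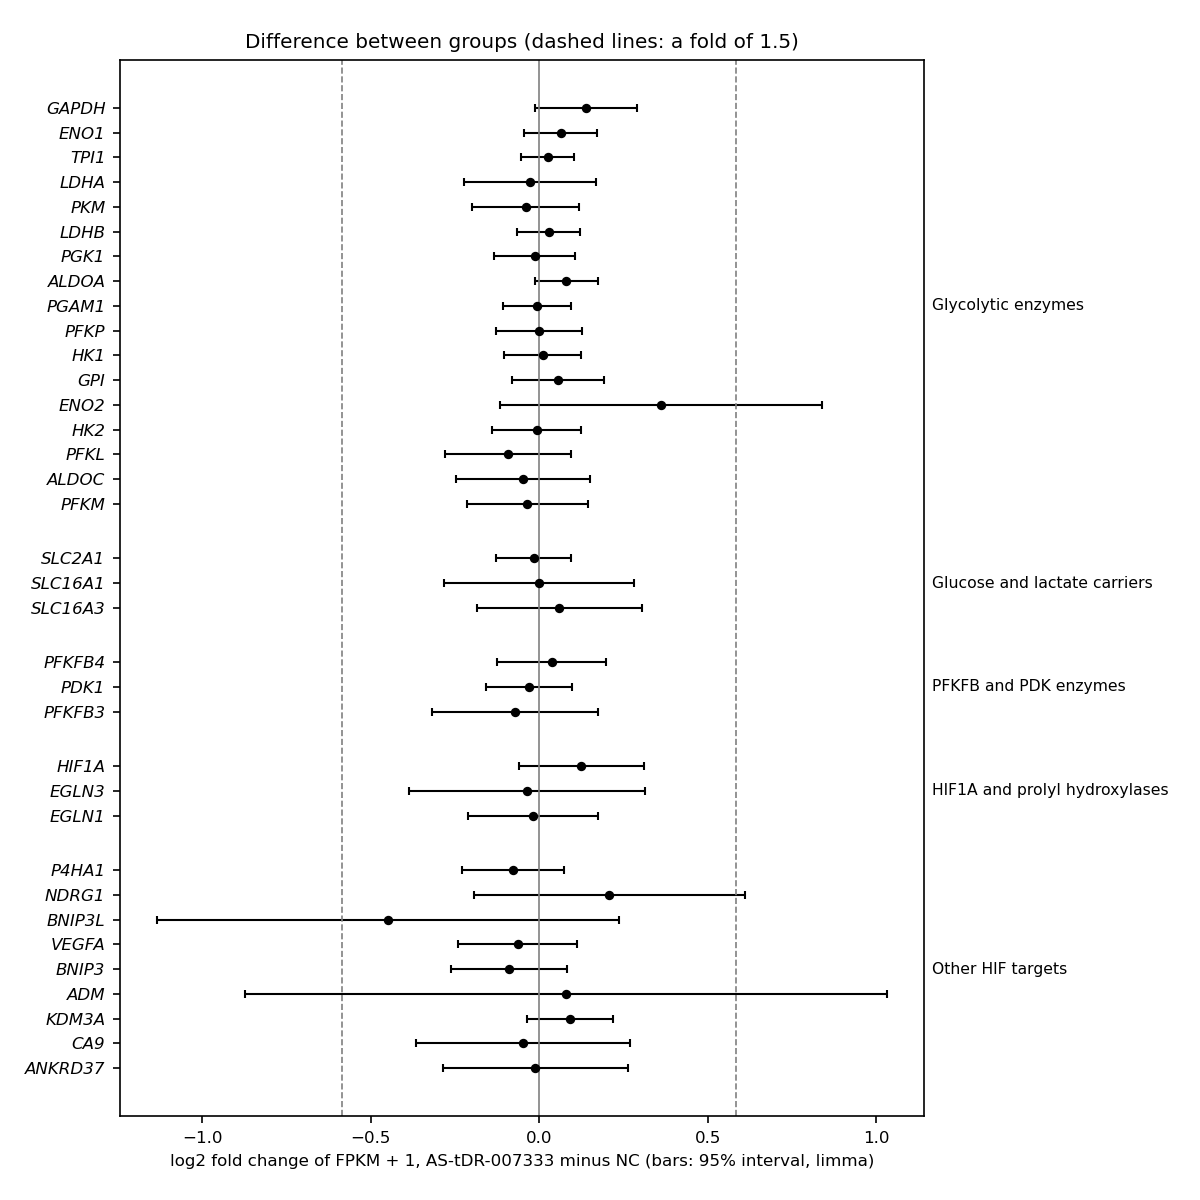
log2 fold change of FPKM + 1 in AS-tDR-007333-overexpressed over NC cells for each of the 35 genes, with bars for the 95% interval from limma (n = 3 libraries a group) and dashed lines at a fold of 1.5. Every interval includes 0, and the intervals of ENO2, BNIP3L, NDRG1 and ADM reach past a dashed line.

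In 4 of the 35 genes the groups did not overlap (11.4%), where this held for 8.76% of all genes tested. GAPDH, ALDOA and KDM3A had all AS-tDR-007333 libraries above all NC libraries, against 3.58% of all genes, and BNIP3L had them below, against 5.18%.

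GAPDH (chr12:6643093-6647540, GRCh37, plus strand) lay at 951, 893 and 979 FPKM in NC replicates 1 to 3, against 1002, 984 and 1124 FPKM in the AS-tDR-007333 replicates. The gap between the groups was narrow, and AS-tDR-007333 replicate 3 was the highest library. The log2 fold change was 0.14 (standard error 0.06, 95% interval -0.01 to 0.29, unadjusted p = 0.0664 from limma). The unadjusted p from limma was 0.0477 after median-of-ratios rescaling (adjusted p = 0.9992) and 0.0494 without AS-tDR-007333 replicate 2 (adjusted p = 0.9991). From limma it was 0.186 without NC replicate 2 and 0.179 without AS-tDR-007333 replicate 3. In the Ballgown-style model it was 0.228. The log2 fold change ranged from 0.08 to 0.17 over the alternatives. GAPDH is widely used as a reference gene.

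ALDOA (chr16:30064411-30081778) lay at 118, 118 and 121 FPKM in NC replicates 1 to 3, against 129, 124 and 124 FPKM after AS-tDR-007333 overexpression. The groups were separate, with AS-tDR-007333 replicate 1 highest, and the log2 fold change was 0.08 (standard error 0.04, unadjusted p = 0.0805 from limma). ALDOC, the other aldolase, lay at 5.59, 6.47 and 6.80 FPKM in NC cells and at 6.40, 6.03 and 5.67 FPKM in AS-tDR-007333-overexpressed cells, and there the groups overlapped.

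ENO1 lay at 390, 372 and 397 FPKM in NC cells and at 414, 412 and 386 FPKM in AS-tDR-007333-overexpressed cells. The groups overlapped through AS-tDR-007333 replicate 3, and the log2 fold change was 0.06 (standard error 0.04, unadjusted p = 0.199 from limma).

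ENO2 (chr12:7022909-7032861) had the largest positive fold change of the set, and its size varied with the NC library left out. It lay at 7.56, 7.77 and 13.4 FPKM in NC replicates 1 to 3, against 12.2, 11.8 and 12.5 FPKM in the AS-tDR-007333 replicates. NC replicates 1 and 2 were thus low and the other 4 libraries high, with a gap of 1.52-fold between them. The log2 fold change was 0.36 (standard error 0.20, 95% interval -0.12 to 0.84, unadjusted p = 0.116 from limma). Without NC replicate 3 it was 0.60 (unadjusted p = 1.20e-04, adjusted p = 0.114 from limma), still not called. Without NC replicate 1 it was 0.23, and without NC replicate 2 it was 0.25. Of all genes tested, 11.2% had a ratio of the highest to the lowest library at least as wide as the 1.77 of ENO2.

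The 13 other enzymes had log2 fold changes between -0.09 (PFKL) and 0.06 (GPI), and their groups overlapped. HK1 and HK2, which trap glucose in the cell, had log2 fold changes of 0.01 and -0.01. The level of HK1 was 56.5 ± 2.60 FPKM in NC cells and 56.9 ± 0.111 FPKM in AS-tDR-007333-overexpressed cells (SD, n = 3 each). PFKM stood at -0.03 on the log2 scale, and PFKP was 63.7 ± 2.56 FPKM in NC cells and 63.6 ± 2.80 FPKM in AS-tDR-007333-overexpressed cells (SD, n = 3 each). TPI1 had the narrowest spread of the set, at 267 to 275 FPKM in NC cells and 274 to 275 FPKM in AS-tDR-007333-overexpressed cells. Of all genes tested, 99.9% had a ratio of the highest to the lowest library at least as wide as the 1.03 of TPI1. PGK1 and PGAM1 each had a log2 fold change of -0.01, and PKM of -0.04. LDHA was 229 ± 22.5 FPKM in NC cells and 224 ± 12.7 FPKM in AS-tDR-007333-overexpressed cells, and LDHB was 148 ± 3.82 and 151 ± 2.57 FPKM (SD, n = 3 each).

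SLC2A1, the basal glucose carrier, had the highest level of the carriers and ranked 284 among all listed genes. It lay at 91.2, 85.6 and 85.9 FPKM in NC cells and at 89.2, 85.8 and 84.6 FPKM in AS-tDR-007333-overexpressed cells. The groups overlapped throughout, and the log2 fold change was -0.02 (standard error 0.05, 95% interval -0.13 to 0.09 from limma). For the lactate carriers, SLC16A1 was 20.2 ± 3.23 FPKM in NC cells and 20.0 ± 0.871 FPKM in AS-tDR-007333-overexpressed cells, and SLC16A3 was 15.5 ± 1.61 and 16.2 ± 1.64 FPKM (SD, n = 3 each). NC replicate 1 was the lowest library for SLC16A1, at 16.5 FPKM. Without it the log2 fold change was -0.13 (unadjusted p = 0.0478, adjusted p = 0.726 from limma).

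PFKFB4 lay at 9.47, 8.12 and 8.42 FPKM in NC cells and at 9.09, 8.84 and 8.78 FPKM in AS-tDR-007333-overexpressed cells, within the range of the NC libraries. For PFKFB3 the log2 fold change was -0.07 (standard error 0.10). PDK1, which inhibits pyruvate dehydrogenase, was 4.91 ± 0.173 FPKM in NC cells and 4.79 ± 0.0449 FPKM in AS-tDR-007333-overexpressed cells (SD, n = 3 each).

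HIF1A (chr14:62162231-62214977), the oxygen-regulated alpha subunit, lay at 45.5, 41.7 and 42.1 FPKM in NC cells and at 42.9, 51.5 and 47.2 FPKM in AS-tDR-007333-overexpressed cells. AS-tDR-007333 replicates 2 and 3 were the highest, while replicate 1 lay inside the NC range. The log2 fold change was 0.13 (standard error 0.08, 95% interval -0.06 to 0.31, unadjusted p = 0.152 from limma), and without AS-tDR-007333 replicate 1 it was 0.19 (unadjusted p = 0.0397, adjusted p = 0.9994 from limma). For EGLN1, the main oxygen sensor of HIF, it was -0.02 (standard error 0.08). EGLN3, a hydroxylase that HIF itself induces, had one of -0.04 (standard error 0.15), with NC replicate 2 and AS-tDR-007333 replicate 3 highest.

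Among the HIF targets, KDM3A, a histone demethylase, lay at 5.57, 5.32 and 5.72 FPKM in NC cells and at 5.89, 6.04 and 5.95 FPKM in AS-tDR-007333-overexpressed cells. The groups were separate, with a log2 fold change of 0.09 (standard error 0.05, unadjusted p = 0.136 from limma). P4HA1, a collagen prolyl hydroxylase subunit with the highest mean of these targets, lay at 43.997, 49.6 and 47.8 FPKM in NC cells and at 47.0, 43.4 and 43.5 FPKM in AS-tDR-007333-overexpressed cells. The groups overlapped, and the log2 fold change was -0.08 (standard error 0.06). VEGFA, the angiogenic growth factor, had one of -0.06 (standard error 0.07). CA9, a cell surface carbonic anhydrase known as a sensitive hypoxia marker, was 2.57 ± 0.121 FPKM in NC cells and 2.49 ± 0.616 FPKM in AS-tDR-007333-overexpressed cells (SD, n = 3 each). For ANKRD37, an ankyrin repeat gene, the log2 fold change was -0.01 (standard error 0.11).

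BNIP3 and BNIP3L encode mitochondrial proteins that mark mitochondria for autophagy. BNIP3 lay at 9.34, 10.3 and 10.6 FPKM in NC cells and at 9.99, 9.43 and 8.80 FPKM in AS-tDR-007333-overexpressed cells, with overlapping groups and a log2 fold change of -0.09 (standard error 0.07). BNIP3L lay at 33.5, 35.2 and 33.3 FPKM in NC cells and at 14.6, 31.5 and 32.1 FPKM in AS-tDR-007333-overexpressed cells. AS-tDR-007333 replicate 1 was far below the other 5 libraries, which lay above a gap of 2.15-fold. The log2 fold change was -0.45 (standard error 0.28, 95% interval -1.14 to 0.24, unadjusted p = 0.162 from limma), the most negative of the set, and without that library it was -0.09 (unadjusted p = 0.152). In the other 2 AS-tDR-007333 libraries BNIP3L was still below all NC libraries.

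ADM and NDRG1 were chosen for full values after these were seen, since their libraries lay far apart within a group. ADM, which encodes the vasodilator adrenomedullin, lay at 10.3, 4.47 and 4.32 FPKM in NC cells and at 5.16, 10.7 and 4.36 FPKM in AS-tDR-007333-overexpressed cells. Each group had 1 high library, NC replicate 1 and AS-tDR-007333 replicate 2, above a gap of 1.99-fold. The log2 fold change was 0.08 (standard error 0.40, 95% interval -0.87 to 1.03 from limma). It was 0.43 without NC replicate 1, and its sign turned without AS-tDR-007333 replicate 2 (-0.26), NC replicate 2 (-0.09) or NC replicate 3 (-0.11). NDRG1, a stress-induced gene, lay at 36.6, 37.0 and 24.1 FPKM in NC cells and at 40.2, 36.4 and 34.8 FPKM in AS-tDR-007333-overexpressed cells. NC replicate 3 was the low library, and the log2 fold change of 0.21 (standard error 0.17) was 0.01 without it.

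**Figure D3:**
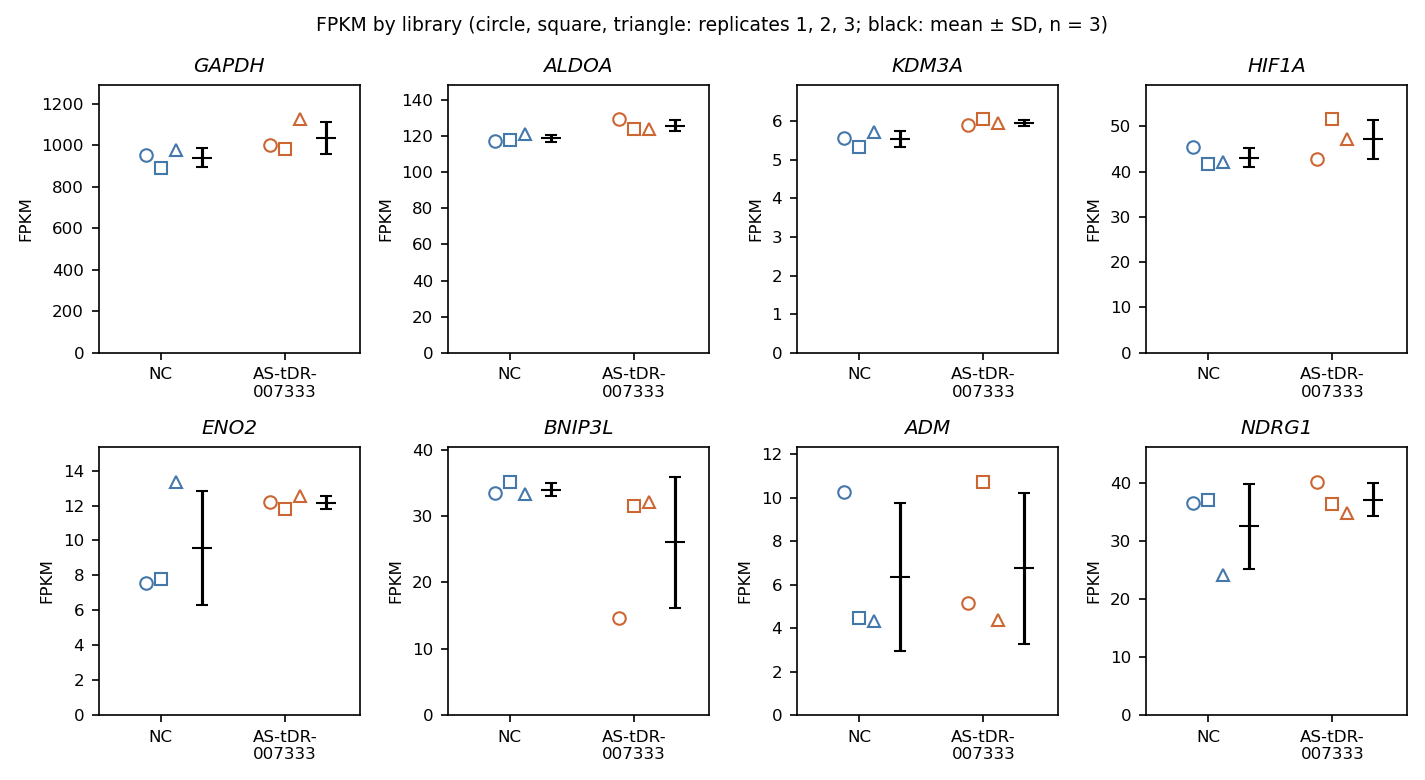
FPKM of 8 genes in each library (circle, square and triangle for replicates 1 to 3) with the mean and SD of each group (n = 3) in black and each axis starting at 0. The upper row shows narrow groups, as in ALDOA at 118 to 121 and 124 to 129 FPKM, and the lower row shows the separate libraries of ENO2, BNIP3L, ADM and NDRG1, as in BNIP3L at 14.6 FPKM in AS-tDR-007333 replicate 1.

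The highest library was at least 1.5 times the lowest in 5 of the 35 genes, ADM (2.49), BNIP3L (2.40), ENO2 (1.77), NDRG1 (1.67) and CA9 (1.66), where this held for 20.0% of all genes tested. The libraries that stood apart were not the same in all 5 genes, though some recurred. They were NC replicate 1 and AS-tDR-007333 replicate 2 for ADM, AS-tDR-007333 replicate 1 for BNIP3L, and NC replicates 1 and 2 for ENO2. For NDRG1 it was NC replicate 3. For CA9 it was AS-tDR-007333 replicate 2, at 1.85 FPKM where the other libraries were at 2.49 FPKM or above. Of these 5 genes, ENO2 and 4 HIF targets, none was called with any library left out.

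The balance of related genes was compared between the groups to ask whether a step shifted from 1 gene to another. The log2 ratio of 10 pairs was computed in each library, after adding 1 FPKM to each level, and tested with a two-sided exact permutation test over libraries, which with 3 against 3 cannot go below 0.1. No pair could therefore pass a threshold of 0.05, and the test does not answer the question either way. The differences are given as sizes with their errors, and the adjusted p over the 10 pairs was 1 for each. The largest differences, AS-tDR-007333 minus NC on the log2 scale, were -0.36 (standard error 0.40, exact p = 0.7) for BNIP3L over BNIP3, 0.30 (standard error 0.23, exact p = 0.4) for ENO2 over ENO1, and -0.13 (standard error 0.07, exact p = 0.3) for ALDOC over ALDOA. Without AS-tDR-007333 replicate 1 the first was 0.04, and without replicate 3 of that group it was -0.59. The difference for ENO2 over ENO1 was 0.52 without NC replicate 3 and 0.16 without NC replicate 1. PFKFB4 over PFKFB3 differed by 0.11 (standard error 0.06, exact p = 0.2) and PFKP over PFKL by 0.09 (standard error 0.08, exact p = 0.4). For PFKM over PFKL, LDHB over LDHA and SLC16A3 over SLC16A1 the difference was 0.06 each (exact p = 0.7, 0.8 and 0.9). It was -0.02 each for HK2 over HK1 and for EGLN3 over EGLN1 (exact p = 0.7 and 1).

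**Figure D4:**
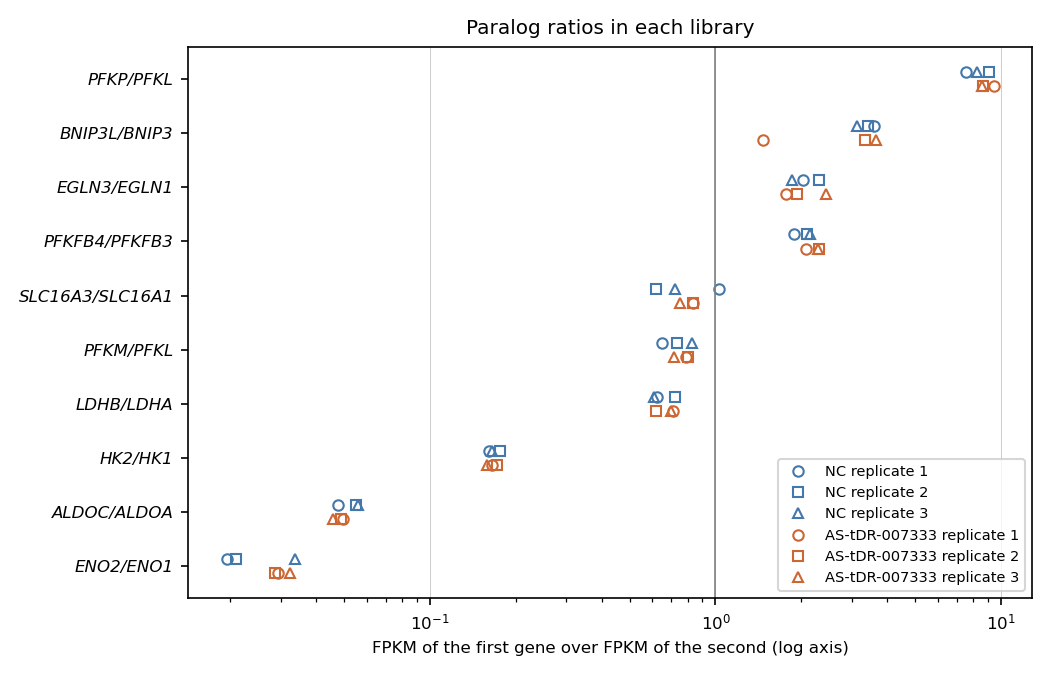
FPKM ratio, with nothing added to the levels, of the first over the second gene in 10 pairs. The axis is log, with 1 symbol for each of the 6 libraries (blue NC, orange AS-tDR-007333). The groups overlap in all 10 pairs, AS-tDR-007333 replicate 1 lies apart for BNIP3L over BNIP3, and the vertical line marks equal levels.

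Other genes of these pathways were taken from 5 lists written from general knowledge and not from how the genes moved. Earlier results of these data were known when the lists were written. Of 123 genes, 99 were tested, and 0 were called by limma at an adjusted p under 0.05. At an unadjusted p under 0.05, 5 were higher (1.63% of all genes tested were) and 3 were lower (1.98% of all genes were). The Ballgown-style model called 0 of them, as it did of all genes.

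Of 34 other glycolytic and gluconeogenic genes, 18 were tested and 0 passed an unadjusted p under 0.05, with a median log2 fold change of -0.02. The smallest p belonged to PGAM5, a mitochondrial phosphatase of the mutase family (log2 fold change 0.12, limma unadjusted p = 0.0920), and TIGAR, which lowers the sugar bisphosphate that drives glycolysis (log2 fold change 0.09, limma unadjusted p = 0.208).

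All 10 genes of the pentose phosphate pathway, which makes NADPH and ribose from glucose phosphate, were tested. In each direction 1 passed an unadjusted p under 0.05 from limma, where 1.63% of all genes tested passed higher and 1.98% lower. PRPS2, which activates ribose phosphate for nucleotide synthesis, lay at 10.2, 11.9 and 11.98 FPKM in NC cells and at 22.0, 12.99 and 22.5 FPKM in AS-tDR-007333-overexpressed cells. Replicates 1 and 3 of the latter were high and replicate 2 close to the NC libraries (log2 fold change 0.67, standard error 0.21, unadjusted p = 0.0154, adjusted p = 0.9996 from limma). RPIA, ribose phosphate isomerase, had a log2 fold change of -0.16 (unadjusted p = 0.0172 from limma).

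Of 13 genes of pyruvate import and pyruvate dehydrogenase, all tested, 0 passed an unadjusted p under 0.05. PDP1, the phosphatase that activates the dehydrogenase, stood at -0.22 and PDHX, a structural subunit, at 0.22 on the log2 scale (unadjusted p = 0.110 and 0.131 from limma). Of 17 HIF subunits and regulators 14 were tested, and again 0 passed. ELOC, a subunit of the ligase that destroys HIF alpha, stood at -0.13 and OS9 at -0.10.

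Of 50 other HIF target genes 45 were tested. An unadjusted p under 0.05 from limma was reached by 4 with a positive log2 fold change (INSIG2, CCNG2, NOL3 and MIF). It was also reached by 2 with a negative one (ERO1A and EDN1). The shares over all genes tested were 1.63% with a positive change and 1.98% with a negative one. INSIG2, which restrains sterol synthesis, lay at 10.8, 12.7 and 12.2 FPKM in NC cells and at 19.5, 18.5 and 17.0 FPKM in AS-tDR-007333-overexpressed cells. The groups were well apart, with a log2 fold change of 0.58 (standard error 0.08, unadjusted p = 2.80e-04, adjusted p = 0.205 from limma). ERO1A, an oxidase of disulfide bond formation, was 59.6 ± 3.26 FPKM in NC cells and 51.6 ± 2.33 FPKM in AS-tDR-007333-overexpressed cells (SD, n = 3 each, log2 fold change -0.20, unadjusted p = 0.0124 from limma). The median log2 fold change over the 45 was -0.04, against -0.01 over all genes tested. It was above 0 for 16 of the 45 and below 0 for 29, so the 4 genes with a positive change went against the lean of the list. Over all genes tested 45.0% were above 0.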

How the data were processed

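FPKM values of 12154 protein-coding genes in 6 libraries were deposited by the authors (KAPA stranded kit, Illumina HiSeq). Their methods name StringTie, HISAT2 with GRCh37 and Ballgown. The submitters' processing notes differ in naming featureCounts (1.5.0-p3) beside HISAT2 (2.0.5), and the annotation release was not stated. All listed genes reached a mean of 0.5 FPKM in a group. FPKM is relative to each library's total, so a change in abundant genes can shift others.

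Groups came from the genotype labels. log2(FPKM + 1) was compared with limma 3.58.1 in R 4.3.3 (moderated variances with a trend, two-sided) over the 11042 genes whose mean reached 1 FPKM, with Benjamini-Hochberg adjustment over all of them and calls at an adjusted p under 0.05. The fit was tested on simulated data. Ratios of paralogs were tested with exact permutation tests, adjusted over 10 pairs. Figures used matplotlib 3.10.9 in Python 3.11.15. Promoters came from RefSeq (GRCh38.p14) by symbol, and gene overlaps from GENCODE release 44 mapped to GRCh37.

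The members and lists were chosen with earlier results of these data known. Values in every library were given for the 8 members with the smallest p, the 3 pairs with the largest ratio difference and the highest member of each role, and for ADM and NDRG1. From each other list the 2 genes with the smallest p were named, and every gene past an unadjusted p of 0.05 in the list of HIF targets. Alternatives tried were no filter, a mean of 5 FPKM as the filter, a pseudocount of 0.1, median-of-ratios rescaling, a Ballgown-style model, a replicate block and leaving out each library.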

Additional observations from a re-analysis of the deposited data

How the results depend on the processing

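The count of the 35 genes called by limma was 0 under each of 12 alternatives, and the smallest adjusted p of any of them was 0.114. At an unadjusted p under 0.05 the count, 0 in the report, was 1 after median-of-ratios rescaling (GAPDH), 1 in the Ballgown-style model (ALDOA), 1 with the replicate block (GAPDH) and 0 to 1 with 1 library left out. The count over all genes, 7 in the report, was 0 in the Ballgown-style model, with 462 at an unadjusted p under 0.05, and 1 with the replicate block. It ranged from 1 to 18 with 1 library left out (18 without NC replicate 1, 14 without NC replicate 2, 1 without NC replicate 3, 11 without AS-tDR-007333 replicate 2). The cause was not tested. Deviations from the group means showed no sharing between same-numbered libraries, with correlations of -0.0134, 0.0106 and -0.0054. With 3 libraries a group this cannot settle whether same-numbered libraries were prepared together. The fold change changed sign under at least 1 alternative for 19 of the 35 genes, the largest of them 0.08 in size, and for none of the other 16. The filter at 5 FPKM left 31 of the 35. Depth is unknown, and 3 libraries a group leave differences in ENO2, BNIP3L, NDRG1 and ADM poorly bounded.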
